A study of Mus musculus with 6 samples.

Results

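Meg3, Rian and 8 further imprinted genes (Dlk1, H19, Igf2, Mest, Peg3, Plagl1, Ndn and Grb10) were followed in lenses of newborn Hsf4-null and wild-type mice. Members were the probe sets, each a group of short probes read together, whose platform annotation gives 1 gene symbol that is on this list, with Gtl2 counted as Meg3. The rule found 28 of 22626 probe sets, which stand for 9 of the 10 listed genes. H19 shares its probe set with another symbol, so no value is given for it. Meg3 and Rian were put on the list because they were higher in the Hsf4-null lens of these same arrays, so their values are given as a description without a test. The other members ask whether imprinted genes of other domains also differed.

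Imprinted genes are transcribed mainly from the allele inherited from the mother or mainly from that inherited from the father, and they lie in clusters whose allele choice follows DNA methylation at an imprinting control region. Meg3 and Rian are long non-coding RNAs made from the maternal chromosome in the Dlk1-Dio3 domain, where Dlk1, Rtl1 and Dio3 are made from the paternal one. Rian hosts small nucleolar RNAs, and many microRNAs of the same domain are read from the same strand.

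The arrays held lens RNA of newborn ICR mice, 3 wild-type arrays and 3 arrays of mice null for Hsf4, the heat shock factor of the developing lens. Each started from 50 ng of total RNA, amplified to labelled cDNA and hybridised to an Affymetrix mouse expression array. The labels call these mice null and name no Cre or tissue-restricted deletion. The methods call the arrays of a group biological replicates and no source used here says whether lenses were pooled, so errors measure only the spread between these 3 arrays. All values below are log2 of the normalised probe set intensity, differences are Hsf4-null minus wild-type on that scale, and probes of different genes were not set against each other.

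The signal of the targeted gene followed the labels: Hsf4 read 9.09, 9.39 and 9.56 in wild-type lens and 4.26, 4.09 and 3.78 in Hsf4-null lens. Array medians lay between 5.22 and 5.38, and arrays of a group correlated at 0.991 to 0.9941 over all probe sets. Of 22626 probe sets tested by limma, 602 differed at an adjusted p under 0.05 (2.66%), 163 higher (0.72%) and 439 lower (1.94%) in Hsf4-null lens. For gene counts each of 12393 genes was read from its brightest probe set, and 357 of them (2.88%) passed, 96 higher (0.775%) and 261 lower (2.11%). Xist was high on wild-type array 1 and Hsf4-null array 1, and Hsf4-null array 3 was low both for Xist and for the Y-linked gene Eif2s3y. A probe set is called dim here where its mean over the 6 arrays was at or below 5.30, the median of all probe sets.

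The starts of Meg3 and Rian are shown because the data turn on these 2 genes. Each window runs from 250 bases before to 50 bases after a RefSeq start in GRCm38.p6, on the + strand. The Meg3 window printed, 1 of 2 that RefSeq gives for this gene, is chr12:109540746-109541045 and the Rian window is chr12:109603695-109603994. Capitals mark matches to motifs searched on both strands: in Meg3 the ZFP57 motif (TGCCGC, read here from the other strand), the cyclic AMP response element TGACGTCA and the TATA box (TATAAA, whose matches on both strands overlap), and in Rian a head-to-head pair of heat shock units (GAANNTTC). The other Meg3 window held none of the motifs searched and is not printed.
Meg3: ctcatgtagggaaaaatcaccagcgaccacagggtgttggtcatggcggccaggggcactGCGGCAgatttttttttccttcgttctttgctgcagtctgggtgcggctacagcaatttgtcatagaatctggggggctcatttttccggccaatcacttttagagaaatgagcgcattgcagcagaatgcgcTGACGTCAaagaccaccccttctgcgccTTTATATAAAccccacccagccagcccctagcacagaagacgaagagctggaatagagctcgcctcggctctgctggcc
Rian: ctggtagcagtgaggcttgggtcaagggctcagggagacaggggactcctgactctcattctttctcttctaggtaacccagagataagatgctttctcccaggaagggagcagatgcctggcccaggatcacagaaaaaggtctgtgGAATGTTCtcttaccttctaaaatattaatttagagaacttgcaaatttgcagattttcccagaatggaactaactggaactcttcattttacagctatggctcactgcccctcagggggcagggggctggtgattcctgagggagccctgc

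The heat shock pair GAANNTTC is present in 7.86% of the 32851 RefSeq windows of this length and the tail-to-tail form TTCNNGAA in 8.52%. TGACGTCA is present in 1.79%, TGCCGC in 11.6% and TATAAA in 13.6%. The 9 members with a probe set have 16 windows among them. Beyond the sequences printed, TTCNNGAA occurred in a window of Igf2, TGACGTCA in a window of Peg3, and TGCCGC in windows of Igf2, Mest, Plagl1 and Grb10. These matches describe letters only, and binding was not measured on these arrays.

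Meg3 was higher on all 3 Hsf4-null arrays than on any wild-type array at every one of its 5 probe sets. Its brightest probe set read 7.14, 6.66 and 6.81 in wild-type lens and 9.48, 9.55 and 9.57 in Hsf4-null lens. The Hsf4-null arrays lay close together, with a standard deviation of 0.05 against 0.25 in wild-type lens (n = 3 each). The difference was 2.66 (standard error 0.13, 95% interval 2.35 to 2.97), which is 6.32-fold. Standard errors and intervals of Meg3 and Rian, here and in the figures, take no account of their choice for an increase. They describe spread and are no test. In bulk RNA a larger number of cells that make a transcript and more transcript in each cell cannot be told apart, and this holds for each difference below.

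The other Meg3 probe sets gave the same order of the groups over a wide range of brightness. The second by brightness read 6.94, 6.49 and 6.78 in wild-type lens and 9.49, 9.59 and 9.49 in Hsf4-null lens, a difference of 2.79. The third read 6.30, 5.49 and 6.62 against 8.72, 8.81 and 8.84, a difference of 2.65. Its wild-type arrays were the most spread of the Meg3 probe sets, array 2 being the lowest, as it was for 3 of the other probe sets too. The fourth read 4.79, 4.62 and 5.20 against 7.04, 7.18 and 6.94, a difference of 2.18. The fifth, a dim probe set, read 3.70, 3.48 and 3.45 against 5.62, 5.27 and 4.74, the smallest difference of the 5 at 1.67.

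Rian was higher on all Hsf4-null arrays at 2 of its 3 probe sets. The brightest read 8.62, 8.46 and 8.41 in wild-type lens and 10.38, 10.72 and 10.58 in Hsf4-null lens. Hsf4-null array 2 was the highest and the groups did not overlap. The difference was 2.06 (standard error 0.12, 95% interval 1.79 to 2.34), or 4.18-fold. The second by brightness read 4.72, 4.84 and 5.22 against 7.67, 7.72 and 7.67, a difference of 2.76. The third, a dim probe set, read 3.89, 3.94 and 3.94 against 3.97, 3.71 and 4.41, and there the groups overlapped (difference 0.11). Together 7 of the 8 probe sets of Meg3 and Rian had every Hsf4-null array above every wild-type array, beside 9.37% of all probe sets, and the rule that chose these genes used this same contrast.

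**Figure D1:**
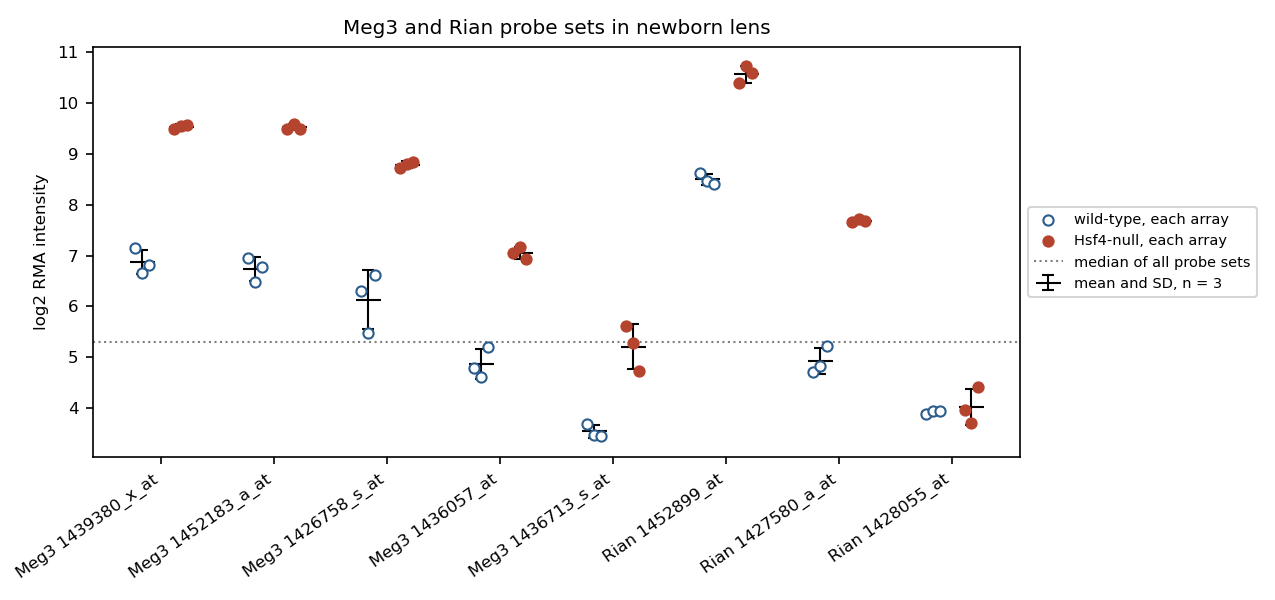
Log2 normalised intensity of the 5 Meg3 and 3 Rian probe sets on each array, open circles for wild-type and filled circles for Hsf4-null lens (n = 3 each), bars for group means. The groups are apart at 7 of the 8 probe sets and overlap at the dim Rian probe set.

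Among the 12393 genes, Meg3 had the 3rd and Rian the 6th largest increase by brightest probe set. Likeness to each was measured as the root mean square difference between array profiles, each centred on its own mean over the 6 arrays. The profile nearest to Meg3 was that of Rian (0.322), followed by Egr1 (0.326), an immediate early transcription factor, Mical2 (0.332), an actin-oxidising enzyme, Ccn1 (0.43), a secreted matrix protein, and Lipg (0.451), an endothelial lipase. Nearest to Rian were the folate transporter Slc46a1 (0.205), Lipg (0.215), Egr1 (0.217), Mical2 (0.22) and the DNA-cutting enzyme Dnase1 (0.25). A likeness over 6 arrays that fall into 2 groups mostly reflects the size of the difference between those groups.

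Dlk1, the paternally expressed Notch-like membrane protein that names the domain, was the only other gene of the domain with a probe set. It read 3.45, 3.24 and 3.51 in wild-type lens and 3.64, 3.57 and 3.56 in Hsf4-null lens. Every Hsf4-null array lay above every wild-type array, but the probe set was dim and the difference of 0.19 did not pass (95% interval -0.06 to 0.44, limma adjusted p = 0.454). RefSeq lists 103 genes from Dlk1 to Dio3, of which 61 are microRNAs, 19 small nucleolar RNAs, 16 long non-coding RNAs, 4 pseudogenes and 3 protein coding. The rule reads 3 of them, Dlk1, Meg3 and Rian, and none of the microRNAs or small nucleolar RNAs, so whether the other RNAs of the maternal strand moved with Meg3 and Rian was not measured.

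The genes that flank the pair on the chromosome were read in RefSeq order, the nearest 10 measured genes on each side. None of these 20 genes passed (limma, against 2.88% of all genes), and 1 had an unadjusted p under 0.05, beside 15.7% of all genes. Their differences ran from -0.28 for Rcor1 to 0.24 for Slc25a47 with a median of -0.00, and all 20 intervals lay within 1 log2 unit of 0. Of the 20, 10 were dim, Dlk1 and Slc25a47 among them. On the Meg3 side the nearest genes were Dlk1 and the tryptophan-tRNA ligase Wars, which differed by 0.23 (95% interval -0.17 to 0.64). On the Rian side they were the phosphatase subunit Ppp2r5c, at 0.23 (-0.12 to 0.58), and the dynein heavy chain Dync1h1, at 0.17 (-0.16 to 0.51). The gene with the unadjusted p under 0.05 was the chaperone Hsp90aa1, named after its value was seen, with a difference of -0.25 (95% interval -0.49 to -0.02, limma adjusted p = 0.293).

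**Figure D2:**
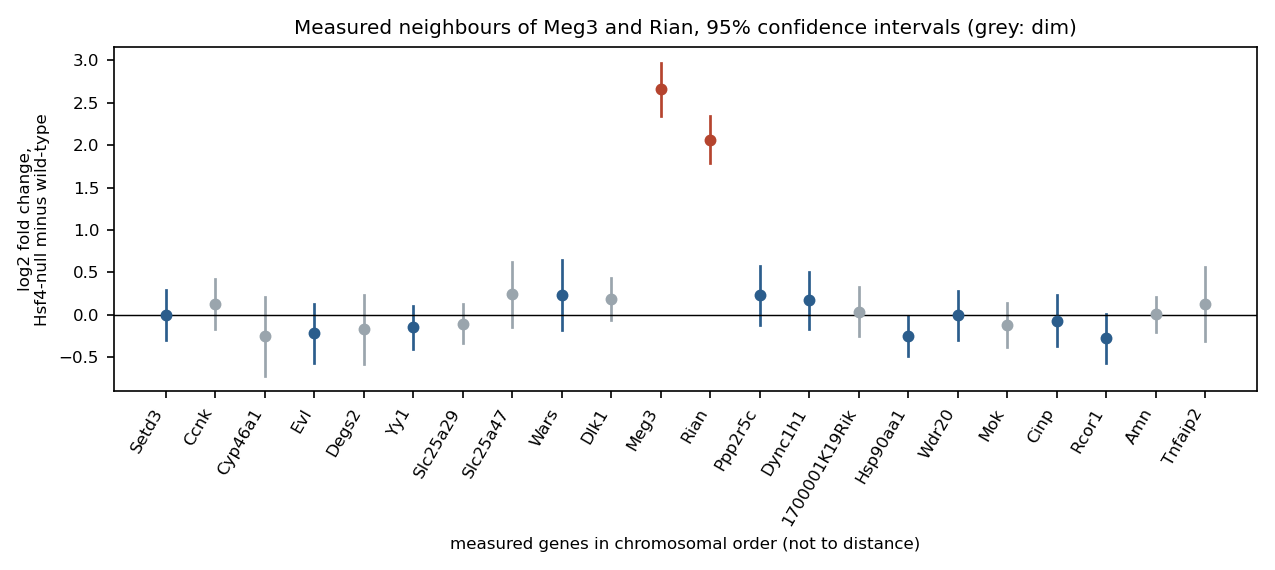
Difference in log2 normalised intensity, Hsf4-null minus wild-type, for Meg3, Rian and the 10 nearest measured genes on each side in RefSeq order, with 95% intervals (n = 3 arrays a group). The 20 flanking genes lie between -0.28 and 0.24, while Meg3 and Rian stand at 2.66 and 2.06.

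The 7 other members with values had 20 probe sets, and none was called higher or lower in Hsf4-null lens (limma, against 2.66% of all probe sets). At an unadjusted p under 0.05 there were 6 of the 20, beside 15.4% of all probe sets. They belonged to Ndn and Plagl1 (higher) and to Peg3 (lower) only. Probe sets of the same gene are repeat readings, so the 20 are not independent. Of the 20, 4 had every Hsf4-null array above and 3 every Hsf4-null array below wild-type, beside 9.37% and 11.7% of all probe sets, and 7 were dim.

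Among the genes of the insulin-like growth factor pathway, Igf2, a paternally expressed fetal growth factor, read 10.41, 10.06 and 10.03 in wild-type lens and 10.07, 10.02 and 10.61 in Hsf4-null lens. The groups overlapped, and the difference was 0.07 (95% interval -0.36 to 0.49, limma adjusted p = 0.899). Its second probe set was dim and differed by 0.18. Grb10, an adaptor that restrains insulin and growth factor receptors, read 11.90, 11.88 and 11.49 against 11.88, 11.78 and 11.97. These overlapped as well (0.12, 95% interval -0.20 to 0.43, limma adjusted p = 0.731), and its dim probe sets differed by -0.01 and 0.00.

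Plagl1, a paternally expressed zinc finger transcription factor, read 10.56, 10.77 and 10.01 in wild-type lens and 10.89, 10.49 and 10.96 in Hsf4-null lens. The brightest probe set overlapped between groups (0.33, 95% interval -0.16 to 0.82, limma adjusted p = 0.512), whereas the weaker of its probe sets had every Hsf4-null array above (0.47, limma adjusted p = 0.21). Mest, a paternally expressed hydrolase-like protein of mesoderm, read 10.41, 10.07 and 9.80 against 10.09, 9.66 and 10.25. Its groups overlapped, with a difference of -0.10 (95% interval -0.56 to 0.37, limma adjusted p = 0.864).

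Peg3, a paternally expressed zinc finger protein, was the member with the largest decrease, though it did not pass. The brightest probe set read 11.86, 11.51 and 11.75 in wild-type lens and 11.25, 11.32 and 11.48 in Hsf4-null lens. All Hsf4-null arrays were below wild-type and the difference was -0.36 (standard error 0.12, 95% interval -0.65 to -0.07, limma unadjusted p = 0.022, adjusted p = 0.23). The 2 further probe sets differed in the same direction, by -0.71 (limma adjusted p = 0.242) and -0.47 (limma adjusted p = 0.333).

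Ndn, the paternally expressed necdin of the Prader-Willi domain, had 8 probe sets that split by brightness. The brightest read 12.13, 12.52 and 12.38 in wild-type lens and 12.33, 12.28 and 12.35 in Hsf4-null lens, with overlapping groups (-0.03, 95% interval -0.30 to 0.25, limma adjusted p = 0.944). The 5 brighter probe sets differed by -0.25 to -0.03. The 3 dim ones went the other way, by 0.21 to 0.83, and the smallest limma adjusted p among the 8 was 0.157.

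**Figure D3:**
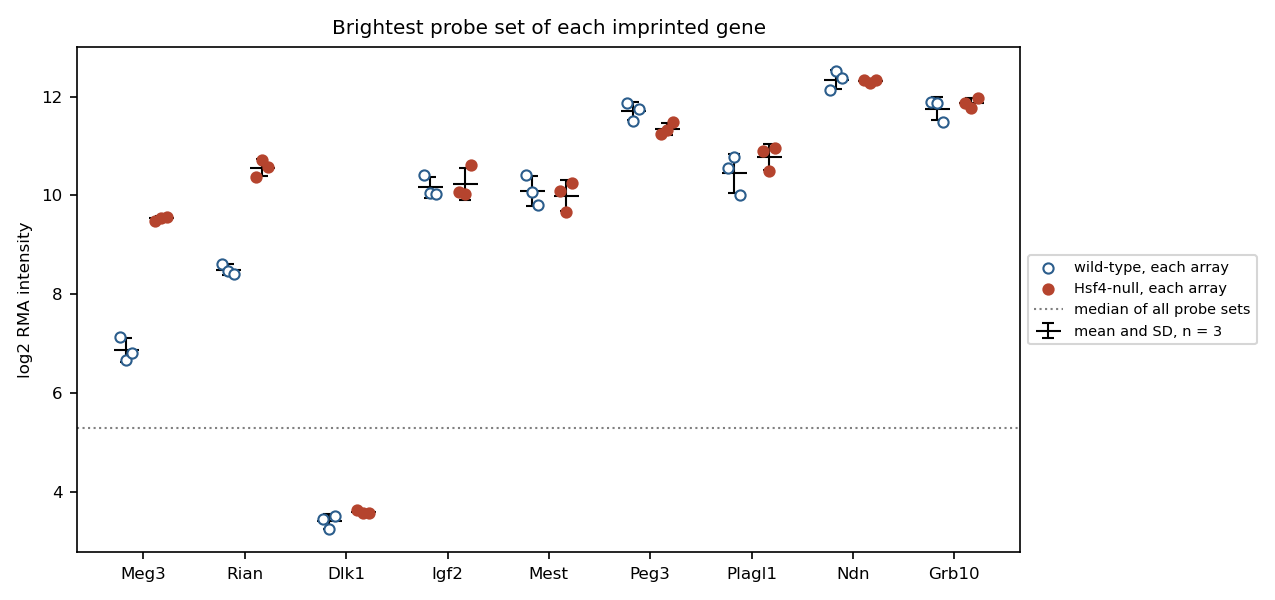
Log2 normalised intensity of the brightest probe set of each of the 9 members with values, by array, open circles for wild-type and filled circles for Hsf4-null lens (n = 3 each). Meg3 and Rian are far apart between groups, Dlk1 and Peg3 are apart by 0.19 and -0.36 without passing, and the remaining 5 overlap.

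A wider list of imprinted mouse genes put the members beside other domains. Without Meg3 and Rian it held 72 genes, 53 of them measured, and none was called (limma, against 2.88% of all genes). Of the 53, 21 were dim, among them 15 of the 26 genes listed as maternally expressed. Their median difference was -0.03 beside 0.01 over all genes. An unadjusted p under 0.05 was reached by 12 of the 53 (22.6%), 4 higher and 8 lower, beside 15.7% of all genes (7.34% higher and 8.38% lower). Another count is that 5 had every Hsf4-null array above and 10 below wild-type, beside 10.1% and 11.5%. The 26 genes listed as maternally expressed had a median of -0.06 and the 22 listed as paternally expressed a median of -0.01. Which allele these genes used in lens was not measured. The interval lay within 1 log2 unit of 0 for 48 of the 53 genes, beside 93.1% of all genes, and Peg12, Sgce, Asb4, Airn and Nap1l5 reached beyond it. The highest upper bound was 1.54, for Nap1l5. A further 35 probe sets of these genes, beside the brightest ones, gave no call either.

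The 12 uncalled genes with an unadjusted p under 0.05, named after their values were seen, lay in 6 of the 7 groups of the list, which are domains and a rest. In the Mest and Peg10 domains, picked here for their values, 4 of 10 measured genes had every Hsf4-null array above wild-type, beside 10.1% of all genes, and all 10 had a median difference of 0.25. These were Sgce, a sarcoglycan (0.91, limma adjusted p = 0.0933), Asb4, a ubiquitin ligase adaptor (0.71, limma adjusted p = 0.13), Tfpi2, a protease inhibitor (0.53, limma adjusted p = 0.0855), and Calcr, the calcitonin receptor (0.36, limma adjusted p = 0.147). Sgce read 5.44, 5.27 and 4.62 in wild-type lens and 6.23, 5.75 and 6.08 in Hsf4-null lens, and the other 3 were dim. In the Peg3 domain, Usp29, a ubiquitin protease made from the same paternal chromosome as Peg3, leaned the same way as Peg3 (-0.55, limma adjusted p = 0.214). Lower values without a call were also read for Atp10a (-0.43, limma adjusted p = 0.1), Phlda2 (-0.43, limma adjusted p = 0.27) and Igf2r, the receptor that clears Igf2 (-0.39, limma adjusted p = 0.154). Of these, Atp10a and Phlda2 were dim. The remaining 3 were Blcap (-0.37, limma adjusted p = 0.118), Slc38a4 (-0.33, limma adjusted p = 0.251) and Mcts2 (-0.24, limma adjusted p = 0.316).

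**Figure D4:**
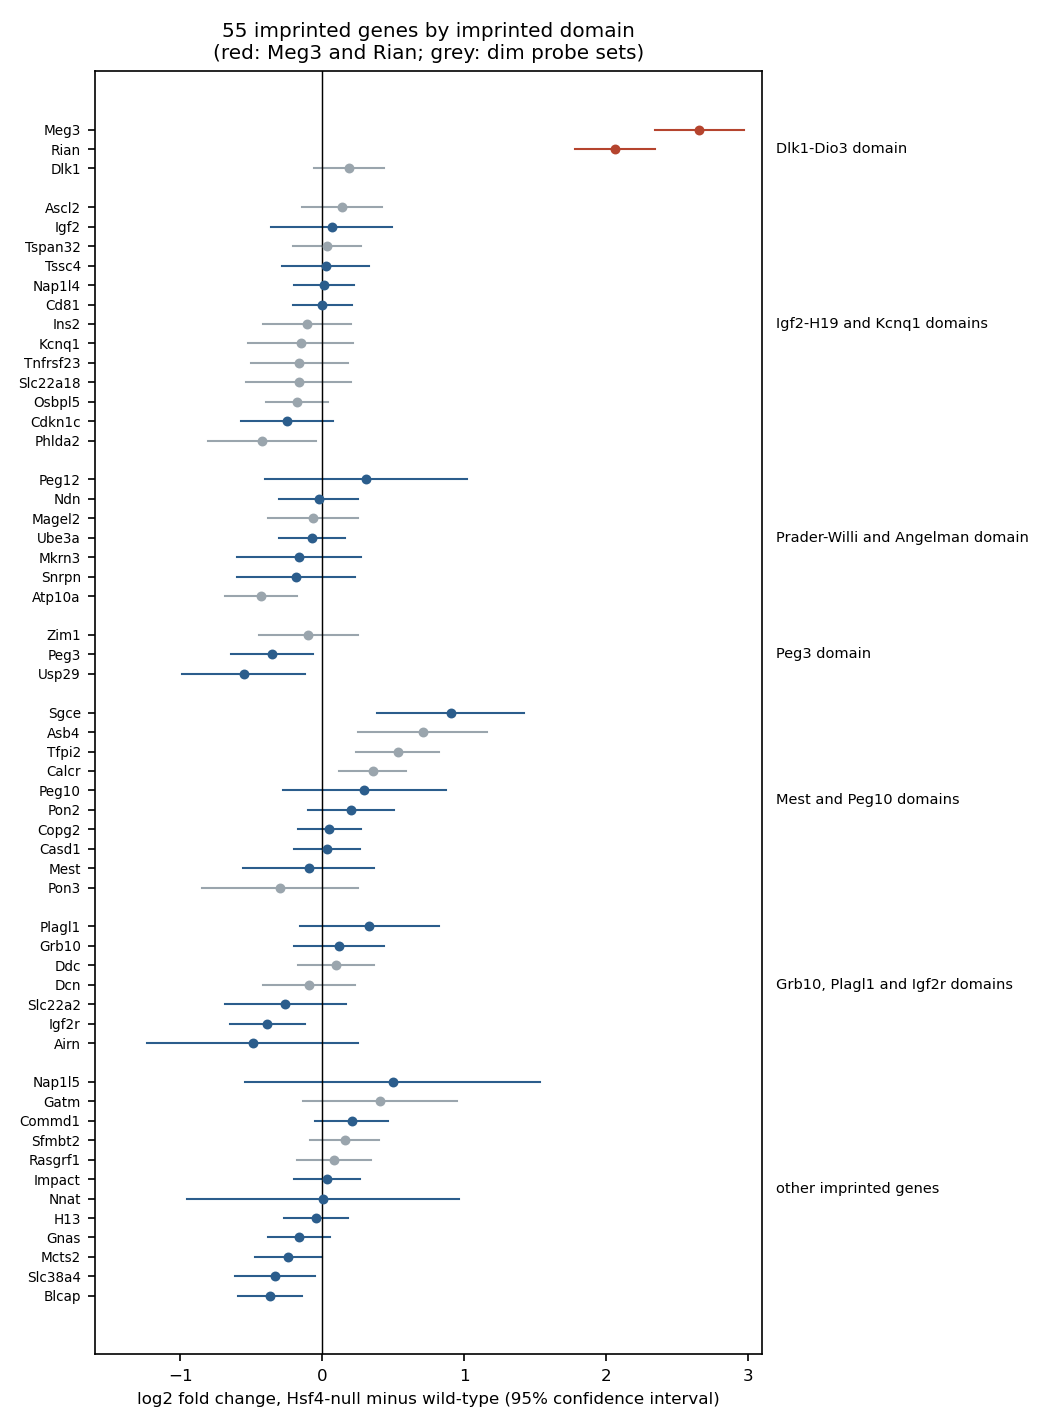
Difference in log2 normalised intensity, Hsf4-null minus wild-type, for the measured imprinted genes grouped by domain, each point 1 gene by its brightest probe set with its 95% interval (n = 3 arrays a group). Meg3 (2.66) and Rian (2.06) stand above all others, which run from -0.55 for Usp29 to 0.91 for Sgce.

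Genes that set or keep imprints were read from a list of 25, with 20 measured, among them the DNA methyltransferases and the zinc finger proteins that guard methylated control regions. Tet1 was the only Tet enzyme measured. None was called (limma, against 2.88% of all genes), and 2 were higher at an unadjusted p under 0.05, beside 7.34% of all genes. The differences ran from -0.24 for Tet1, which oxidises methylated cytosine, to 0.47 for Dnmt1, which copies methylation to new DNA strands, and all 20 intervals lay within 1 log2 unit of 0. Of the 11 measured genes of Polycomb repressive complex 2, which marks silent chromatin and binds many long RNAs, none was called (against 2.88% of all genes). They ran from -0.20 for Phf19 to 0.33 for Eed. Of 18 measured genes of insulin-like growth factor signalling none was called (against 2.88% of all genes). They ran from the binding protein Igfbp5 at -0.70 (limma adjusted p = 0.0606) to the binding protein Igfbp2 at 0.83.

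Markers of the lens and of other tissues were read beside the imprinted genes. Of 11 lens markers measured, 2 were lower in Hsf4-null lens (against 2.11% of all genes), the beaded filament protein Bfsp1 (-1.65) and the fibre transcription factor Prox1 (-0.83). Foxe3 alone was dim, and 8 of the 11 differences were below 0. The lens markers summed to a linear intensity of 85233 to 86756 on wild-type and 73621 to 79171 on Hsf4-null arrays. Of 13 mesenchyme markers, 2 were higher (against 0.775% of all genes), Col1a1 (1.89), a chain of type I collagen, and the transcription factor Twist1 (0.998). Differences were above 0 for 9 of the 13 and below 0 for 4, with a median of 0.17. The 13 markers summed to a linear intensity of 2030 to 2429 on wild-type and 2328 to 2899 on Hsf4-null arrays. Of them, Col1a2, Lum, Dcn, Thy1 and Twist1 were dim. None of 12 vascular markers was called (against 2.88% of all genes), and their sum was 1858 to 2532 on wild-type and 2648 to 2739 on Hsf4-null arrays. No macrophage, pigment cell, retina, cornea and skin, muscle or blood marker was called (against 2.88% of all genes). All 12 muscle markers were dim. Differences were above 0 for 10 of 12 vascular, 12 of 13 macrophage, 8 of 10 pigment cell and 12 of 13 retina markers. The same held for 5 of 10 cornea and skin, 5 of 12 muscle and 2 of 4 blood markers, and for 6356 of 12393 genes. Higher at a limma unadjusted p under 0.05 were 4 vascular, 4 macrophage, 3 pigment cell, 2 cornea and skin and 2 blood markers. Over all genes 7.34% were higher at that level, and no marker of these lists was lower. The part of mesenchymal, vascular and other non-lens cells in the differences of Meg3 and Rian was not tested.

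The summed retina markers varied most between arrays, at 807, 1848 and 594 in wild-type and 2292, 355 and 2492 in Hsf4-null lens. The order of Rian on the Hsf4-null arrays differed between its probe sets. The brightest read 10.38, 10.72 and 10.58, highest on array 2, where the retina markers were lowest. The next by brightness read 7.67, 7.72 and 7.67, too close to rank. The dim one read 3.97, 3.71 and 4.41, lowest on array 2. Whether Rian followed the retina markers was not tested. The brightest Meg3 probe set read 9.48, 9.55 and 9.57 on the Hsf4-null arrays, which is too close to rank them. Which Hsf4-null array was highest also differed between the Meg3 probe sets. The plot with arrays ordered by summed retina markers includes Meg3, but no conclusion was drawn from its order among the Hsf4-null arrays. Of the 32 imprinted genes above the median of all probe sets, without Meg3 and Rian, 4 (12.5%) had their 3 highest arrays where the retina markers had theirs, namely Nap1l5, Nnat, Peg12 and Plagl1, beside 9.26% of all 6889 such genes. This share is near that of genes at large.

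**Figure D5:**
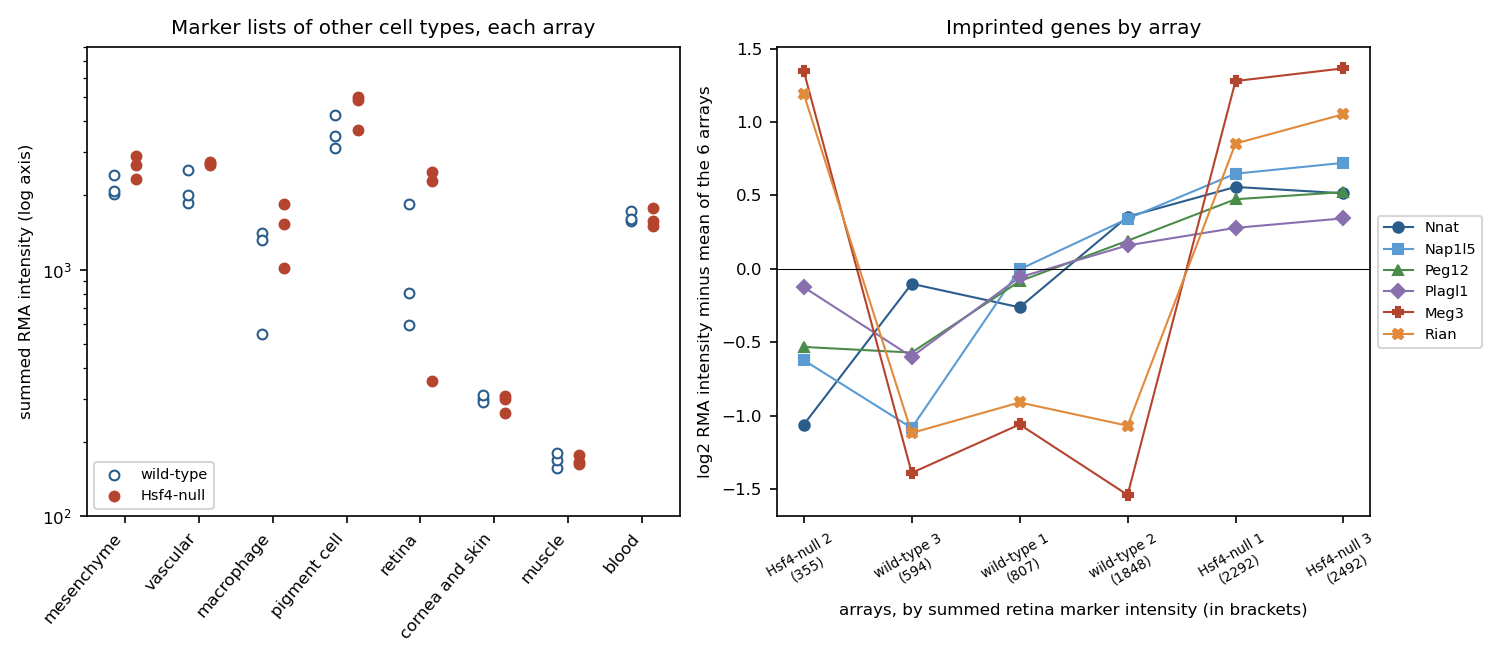
Left, summed linear normalised intensity of each list of non-lens markers on each array (log axis, open circles wild-type, filled circles Hsf4-null, n = 3 each). Right, log2 normalised intensity of 6 imprinted genes minus each gene's mean over the 6 arrays. Arrays are ordered by their summed retina markers, from 355 to 2492. Meg3 and Rian were high on all Hsf4-null arrays. The other 4 were picked because they were highest on the 3 arrays at the right, so their pattern follows from that choice.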

How the data were processed

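The deposited values were RMA intensities on a linear scale, which the authors made from the scanned arrays by background correction, quantile normalisation and probe summary. No source used here gives its version or options. They were turned to log2. The table holds 22690 probe sets, 64 of them array controls that were dropped. Of the remaining 22626, 20380 carry 1 symbol in the platform annotation, 691 several and 1555 none. Symbols were updated by gene identifier through RefSeq (20351 probe sets). The 2 groups were compared with limma 3.58.1 in R 4.3.3 (lmFit, eBayes) over all probe sets, with Benjamini-Hochberg adjustment and calls at an adjusted p under 0.05. The fit was tested on simulated data. An exact permutation test of 3 against 3 arrays cannot go below 0.1, so none was used. The study's permutation-based SAM was not run, and its t-test was an alternative.

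Members and lists were chosen with earlier results of these data known. The text describes all probe sets of members, the nearest neighbours, the 5 profiles most like Meg3 and Rian, and called genes of the other lists. Ends of a list's range and genes said to lean were named after their values were seen. The files name no genome build, so RefSeq GRCm38.p6 served only for names, gene order and the printed windows. Alternatives were a replicate block, other variance priors, array weights, other scalings, a filter on dim probe sets, other probe set rules and leaving out each array.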

Additional observations from a re-analysis of the deposited data

How the results depend on the processing

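Meg3 and Rian, chosen for their increase, kept their direction under all 16 settings, and 30 of their 32 values moved by less than 1 SD. That count includes settings that cannot move a difference, such as the replicate block, the trended and robust prior and the t-test. With the mean of all probe sets of a gene the log2 difference was 2.39 for Meg3 and 1.64 for Rian, since dim probe sets enter, and leaving out each array gave 2.56 to 2.80 and 1.99 to 2.15. Of 111 values of the 7 other members under alternatives, 110 stayed uncalled, the exception being Peg3 at an unadjusted t-test p. Leaving out each array turned the sign of uncalled differences near 0, with ranges of -0.12 to 0.19 for Igf2, -0.24 to 0.07 for Mest, -0.13 to 0.06 for Ndn and -0.02 to 0.19 for Grb10. Ndn was also above 0 after quantile normalisation (0.02) and with the mean of its probe sets (0.13). No other imprinted gene was called under leave-one-out (0 to 0), 1 was called after median centring (Sgce, adjusted p = 0.0364), and 11 by the unadjusted t-test, and the cause was not tested.

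Over all probe sets the 602 calls became 382 with the replicate number as a block, 835 with the trended and robust prior, 2912 by the unadjusted t-test, 85 by that test after adjustment, and 321 to 562 when arrays were left out (335 without wild-type array 2, 358 without wild-type array 3 and 321 without Hsf4-null array 3). With 1 probe set per gene, the brightest, 366 of 12393 genes were called, a count over fewer features. Arrays of the same number deviated with correlations of 0.252, -0.206 and -0.081, so the numbers do not pair them. For lists, the block gave 1 lens marker in place of 2 and 1 macrophage marker (Lyz2) in place of 0. Median centring gave 1 macrophage marker (Lyz2), 1 blood marker (Slc4a1) and 1 growth factor signalling gene (Igfbp5). Quantile normalisation gave 1 blood marker. Igfbp5 was also called (1) with the trended and robust prior, with array weights, without dim probe sets and with the mean of probe sets. The mean of probe sets gave 1 macrophage marker (Aif1) and 1 neighbour (Hsp90aa1, -0.46, adjusted p = 0.0265). Without dim probe sets 1 mesenchyme marker was called, since that filter leaves out the dim marker Twist1 before testing. The unadjusted t-test gave 5 lens, 3 vascular, 3 macrophage, 2 cornea and skin, 1 muscle and 1 blood marker, 1 imprint maintenance gene, 2 Polycomb genes, 2 growth factor signalling genes and 1 neighbour. After adjustment it gave 1 lens and 0 mesenchyme markers. Leaving out arrays gave 1 to 2 lens, 1 to 2 mesenchyme and 0 to 1 vascular markers (Cldn5, without wild-type array 1).

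The number of arrays limits precision, and dim refers only to the median of all probe sets, since no background level was measured. The design reads RNA level and not the allele it came from.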

Other observations

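Long non-coding RNAs by RefSeq type were looked at after the results above were known. Without Meg3 and Rian, 128 were measured, and 1 was called higher and 0 lower in Hsf4-null lens (beside 0.775% and 2.11% of all genes), while an unadjusted p under 0.05 was reached by 9 that were higher and 3 that were lower (beside 7.34% and 8.38%). The called gene was AI506816 (0.84, limma adjusted p = 0.0153). The 128 had a median difference of 0.03 beside 0.01 over all genes, and 94 of them were dim.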
